A study of Mus musculus with 6 samples.

Results

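Cyp3a11, Cyp3a13 and Por were followed on 6 Agilent 2-colour oligonucleotide arrays of mouse liver RNA. The members were all non-control probes whose gene symbol, printed in brackets in the probe description or reached through the GenBank accession, was one of these names. There were 3 such probes, 1 for each gene, of 20868 probes on the array, which carried 9334 genes with a symbol. Of 7 other mouse Cyp3a genes looked for, 2 were on the array with 1 probe each, Cyp3a16 and Cyp3a41a (named Cyp3a41 in the probe description), and both are given beside the members.

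Every mouse was of the C3H/HeNCrlBR(C3He) background strain, was 39 weeks old and had received the liver carcinogen diethylnitrosamine (DEN), which initiates tumours. Liver came from wild-type (WT) mice given DEN and then phenobarbital (PB) in the drinking water, from CAR-knockout (CAR-KO) mice given the same, and from CAR-KO mice given DEN alone. The fourth RNA came from tumours of WT mice given DEN and PB. Since every RNA came from a DEN-treated animal, no comparison was with untreated liver, and no WT liver given DEN alone was analysed here. Each of 3 RNA pairs was hybridised on 2 arrays with the dyes exchanged. The CAR-KO liver RNA given DEN and PB was in every pair, against WT liver given both agents in the first, against CAR-KO liver given DEN alone in the next and against WT tumour in the last. The sex, the number and any pooling of the animals were not given in the sources used here. Nor do the labels say whether the arrays of a pair held separate RNA extracts, so each p-value measures the spread between dye-swapped arrays, which may be technical only.

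CAR, encoded by Nr1i3, is a nuclear receptor of hepatocytes that PB activates and that switches on drug-metabolising genes, with Cyp2b10 as its best-known target. PXR, encoded by Nr1i2, is a related receptor that PB can also activate, and Cyp3a11 is its best-known mouse target gene; the level of Nr1i2 itself was not analysed here. Cyp3a11 encodes the main PXR-inducible CYP3A enzyme of mouse liver, a monooxygenase that oxidises drugs, bile acids and steroids. Cyp3a13 encodes a more distant CYP3A enzyme that is also found in the intestine, and Cyp3a16 and Cyp3a41a encode close relatives of CYP3A11. Por encodes NADPH-cytochrome P450 reductase, the flavoprotein that passes electrons from NADPH to all P450 enzymes of the endoplasmic reticulum, CYP3A enzymes included.

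The promoters are shown because PXR and CAR bind, with RXR, to pairs of AGTTCA-like sites. The members differed in whether their proximal promoter held an exact AGTTCA or AGGTCA match. The windows are the 250 bases before each RefSeq start on GRCm38.p6, written 5′ to 3′ on the gene's strand, with every AGTTCA or AGGTCA match on either strand in capitals. They lie at chr5:145879855-145880104 on the minus strand (Cyp3a11), chr5:137921620-137921869 on the minus strand (Cyp3a13) and chr5:135688895-135689144 on the plus strand (Por).
Cyp3a11: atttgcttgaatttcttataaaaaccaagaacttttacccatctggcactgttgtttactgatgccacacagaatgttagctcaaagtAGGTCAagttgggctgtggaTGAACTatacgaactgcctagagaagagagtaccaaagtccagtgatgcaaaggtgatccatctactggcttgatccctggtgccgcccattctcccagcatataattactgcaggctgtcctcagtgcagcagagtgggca
Cyp3a13: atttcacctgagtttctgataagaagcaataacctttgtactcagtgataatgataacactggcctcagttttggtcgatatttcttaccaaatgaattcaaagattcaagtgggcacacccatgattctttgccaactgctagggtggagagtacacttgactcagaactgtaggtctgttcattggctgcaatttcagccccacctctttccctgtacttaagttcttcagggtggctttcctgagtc
Por: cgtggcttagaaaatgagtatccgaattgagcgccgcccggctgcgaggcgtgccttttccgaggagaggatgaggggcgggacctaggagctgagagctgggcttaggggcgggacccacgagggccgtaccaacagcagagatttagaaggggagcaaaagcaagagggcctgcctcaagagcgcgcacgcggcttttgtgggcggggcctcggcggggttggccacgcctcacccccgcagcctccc
The Cyp3a11 window held AGGTCA starting 162 bases before the gene's start and TGAACT, the reverse complement of AGTTCA, 142 bases before it. Cyp3a41a held TGAACT 130 bases before its start, and the Cyp3a13, Por and Cyp3a16 windows held neither motif. Matches of this length are common: AGTTCA occurred in 11.8% and AGGTCA in 14% of 32851 RefSeq windows of the same length. The paired forms are direct repeats of AGTTCA (DR3 and DR4, with 3 or 4 bases between) and everted repeats of it (ER6 and ER8, with 6 or 8 bases between). They occurred in 0, 3, 2 and 1 of all windows and in none of the 5 named here. Only exact matches were searched, so sites with a mismatch and pairs that include AGGTCA would be missed. Aligned over the window, the Cyp3a11 promoter was 76.2% identical to that of Cyp3a16, 71.7% to that of Cyp3a41a, 53.5% to that of Cyp3a13 and 46.3% to that of Por. The Cyp3a16 and Cyp3a41a promoters were 90.9% identical to each other. These are descriptions of 250 bases and not of the distal enhancers of these genes.

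All 5 probes were well above background in 12 of 12 channels, and 1 channel was saturated (Cyp3a41a in tumour RNA on array 2 of the tumour pair). Array 2 of the tumour pair was read on another scanner, with a median background of 288 (Cy3) and 299 (Cy5) against 53 to 62 on the other 5. The probe for Nr1i3 gave log2 ratios of 1.08 and 0.49 for WT over CAR-KO liver (0.79 ± 0.16, limma adjusted p = 0.412), so signal remained in the CAR-KO RNA, and whether the probe lies within the deleted segment is not given in the sources used here. The hepatocyte markers Apoa1 and Ttr, 2 of 6 on the list that the array measured, were well above background throughout. The summed signal of 4 skeletal muscle markers was highest in a single RNA. It was 841 to 1250 in all 6 channels of CAR-KO liver given DEN and PB, against 476 to 483 in CAR-KO liver given DEN alone, 469 to 475 in WT liver and 419 to 431 in tumour. Between WT and CAR-KO liver 3 of the 4 had negative ratios, and Ckm went the other way, at 0.38 and 0.21. Every direct ratio below has CAR-KO liver given DEN and PB on 1 side. The part of muscle RNA in the ratios of the members was not tested.

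In CAR-KO liver, Cyp3a11 signal was higher with PB than without it on both dye-swapped arrays, by 2.68-fold in the fit, but this was not called after adjustment over all probes. On array 1 the Cyp3a11 probe read 2096 in the Cy3 channel, which held RNA from DEN alone, and 7301 in the Cy5 channel, which held RNA from DEN and PB. On array 2, with the dyes exchanged, it read 977 for DEN alone in Cy5 and 4379 for DEN and PB in Cy3. The PB channel was the brighter on each array whichever dye it carried. After background correction and loess normalization the log2 ratios, with the sign set so that a positive value means more signal with PB, were 0.73 and 2.11. The fit gave a log2 ratio of 1.42 ± 0.21 (SE, 95% interval 0.93 to 1.91, limma adjusted p = 1), the 20th largest of 20742 probes. This SE comes from the fit to all 6 arrays with a dye effect per probe, and not from the 2 arrays of the pair alone. The ratios of both arrays of the pair lay outside the interval.
No probe was called in this comparison (0% at a Benjamini-Hochberg adjusted p under 0.05 with limma). Of 20742 probes, 565 had an unadjusted p under 0.05, which is a share below 0.05. The separate-channel fit of the same arrays called 12. Cyp3a11 was among those 12, at 1.41 and an adjusted p of 0.0059, and it also passed when either tumour array was left out (1.42, adjusted p = 0.0104). Over 20 alternatives with the labelled dyes, all with a positive ratio, the adjusted p was between 0.0059 and 1.

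**Figure D1:**
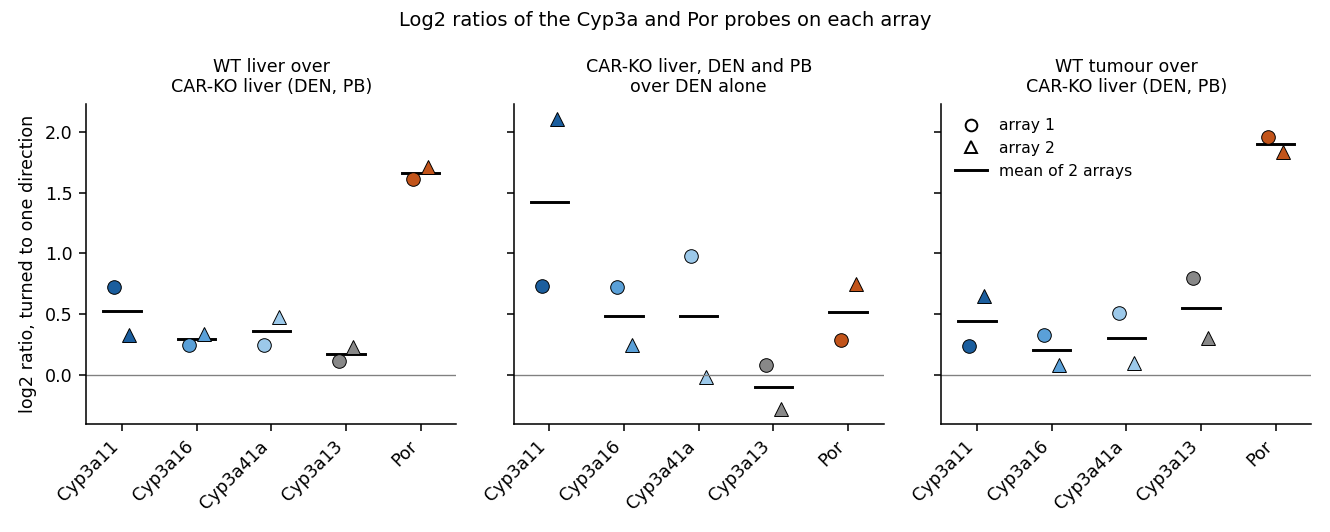
Log2 ratios (y axis) of the 5 Cyp3a and Por probes (x axis) on array 1 (circles) and array 2 (triangles) of each dye-swapped pair, with the mean of both as a bar; the sign is set so that a positive value means more signal in the first-named RNA. Por stands at 1.61 to 1.96 on the 4 arrays that compare WT liver or tumour with CAR-KO liver, and Cyp3a11 reaches 0.73 and 2.11 with PB in CAR-KO liver.

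The arrays of this pair agreed poorly, and Cyp3a11 was among the few probes high on both. Over 20680 probes the turned ratios of the pair correlated at r = -0.35, across probes, which are not independent, and 36.9% of probes had the same sign on both arrays. On array 1, 13 probes had a log2 ratio above 1, and on array 2 there were 477. Cyp3a11 lay in the top 0.101% of array 1 and the top 0.381% of array 2. The lower of its pair of ratios, 0.73, was exceeded by that of 9 probes of 20680 (0.0435%). The 5 of those 9 with a symbol, named after their values were seen, were Mt1, a metallothionein, and the skeletal muscle genes Tnnc2, Tnni2, Mylpf and Myh2.

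Of the 13 hepatocyte, pericentral and periportal markers measured, 4 had a log2 ratio above 1 on array 2 (Apoa1, Arg1, Cyp2e1 and Glul) and 0 on array 1, while 4 were negative on array 2 (Ttr, Pck1, Lgr5 and Axin2). Apoa1, an apolipoprotein of hepatocytes, stood at -0.40 on array 1 and 2.79 on array 2. Arg1, a urea cycle enzyme, stood at 0.01 and 2.21, and the pericentral P450 gene Cyp2e1 at -0.13 and 1.61. The hepatocyte marker Ttr stood at 0.10 and -0.25, and the periportal markers Pck1 and Cyp2f2 at 0.03 and -0.60 and at 0.01 and 0.45. The summed signal of the 2 hepatocyte markers was 1928 to 9957 in the channels of CAR-KO liver given DEN alone and 5565 to 8888 in the 6 channels with PB. That of 7 pericentral markers was 7106 to 14295 without PB and 13258 to 19438 with it. The part of this spread in the Cyp3a11 ratio was not tested, and in bulk tissue fewer cells of a type cannot be told apart from less RNA per cell. The labels give the dyes of both arrays. With these dyes Tnnc2, a muscle troponin, stood at 1.98 and 1.58, higher in the RNA with PB. It was also higher in that RNA than in WT liver and tumour, at -1.78 ± 0.15 for WT liver and -1.83 ± 0.15 for tumour over it (limma adjusted p = 0.00746 and 0.00163). With the sign of array 2 turned, an alternative chosen after seeing the data, Cyp3a11 had a log2 ratio of -0.49 (adjusted p = 0.963).

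**Figure D2:**
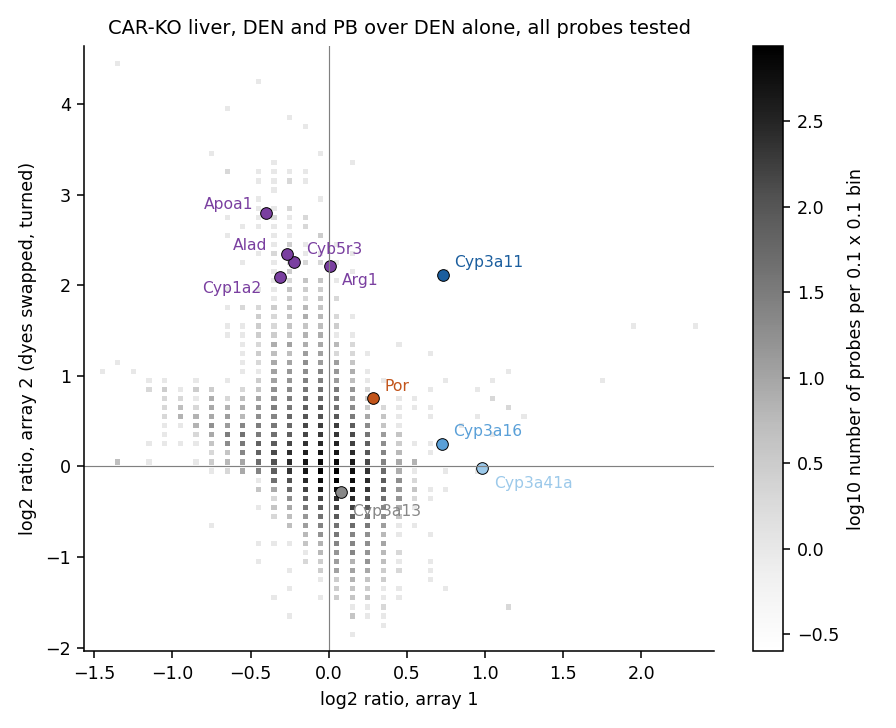
Log2 ratio of CAR-KO liver given DEN and PB over CAR-KO liver given DEN alone on array 1 (x axis) against array 2 (y axis), with the grey scale giving the number of probes per bin. The Cyp3a and Por probes are marked beside 5 genes chosen after their values were seen: Apoa1, Alad, Cyb5r3, Arg1 and Cyp1a2 rest near or below 0 on array 1 and above 2 on array 2, while Cyp3a11 is at 0.73 and 2.11.

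The close relatives of Cyp3a11 had positive fitted ratios with PB in CAR-KO liver, carried mostly by array 1. Cyp3a16 gave log2 ratios of 0.72 and 0.25 (0.49 ± 0.16, limma adjusted p = 1). Cyp3a41a gave 0.98 and -0.02 (0.48 ± 0.18, limma adjusted p = 1). On array 1, where few probes moved, Cyp3a11, Cyp3a16 and Cyp3a41a lay in the top 0.101%, 0.106% and 0.0724% of probes. On array 2 the shares of probes above Cyp3a16 and Cyp3a41a were 21% and 52.6%. The CYP3A genes are near-identical copies in part, and the probe sequences were not used here, so signal that these 3 probes share cannot be told apart.

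Cyp3a13 and Por gave smaller values than Cyp3a11 with PB in CAR-KO liver. Cyp3a13 read 264 (DEN alone) and 345 (DEN and PB) on array 1, and 230 and 273 on array 2. Its log2 ratios were 0.08 and -0.28, on either side of 0, and the fit gave -0.10 ± 0.16 (95% interval -0.47 to 0.27, limma adjusted p = 1). Por read 1405 and 3429 on array 1, and 843 and 1515 on array 2, in the same order. Its log2 ratios were 0.28 and 0.75, both positive, and the fit gave 0.52 ± 0.17 (95% interval 0.11 to 0.92, limma adjusted p = 1). On array 1, 3.37% of probes lay above Por, and on array 2, 4.25%.

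After DEN and PB, Por was 3.17-fold higher in WT than in CAR-KO liver, and was the only member called in that comparison. The Por probe read 4093 for WT liver in Cy3 and 2547 for CAR-KO liver in Cy5 on array 1, and 8078 for WT liver in Cy5 and 1591 for CAR-KO liver in Cy3 on array 2. WT liver was the brighter on each array. The log2 ratios were 1.61 and 1.71, within 0.1% of the top of each array (0.0967% and 0.0918% of probes were higher). The fit gave 1.66 ± 0.17 (SE of the fit to all 6 arrays, 95% interval of the fold 2.39 to 4.19, limma adjusted p = 0.022), the 21st largest of 20743 probes. Of all probes, 0.0916% were called higher and 0.00964% lower, 21 in all, against 94 without either tumour-pair array, 8 without either PB-pair array, and 5 and 4 without WT-pair array 1 and 2.
The call was lost without WT-pair array 1 (1.80, adjusted p = 0.533) or array 2 (1.53, adjusted p = 1) and on leaving out either PB-pair array (1.66, adjusted p = 0.108). Over 20 alternatives the log2 ratio stayed between 1.53 and 1.80, the adjusted p ran from 2.42e-05 to 1, and 13 kept the call. Several of the 20 could not change this ratio: Aquantile, the filters, the variance settings and leaving out an array of another pair.
Of 7 pericentral hepatocyte markers 6 had a positive fitted ratio in this comparison, 4 had an unadjusted p under 0.05 and 1 was called. Among all 20743 probes, 471 had an unadjusted p under 0.05. Rhbg, an ammonium transporter, was the one called, at 2.17 ± 0.17 (limma adjusted p = 0.0058), and Glul, glutamine synthetase, stood at 1.77 ± 0.24 (limma adjusted p = 0.0906). All 4 periportal markers had negative fitted ratios, and none was called by limma, with 1 at an unadjusted p under 0.05. The summed signal of the pericentral markers was 19211 to 19330 in WT liver, within the 13258 to 19438 of CAR-KO liver given DEN and PB. POR and CYP3A enzymes are themselves pericentral in normal liver, and the part of zonation in the Por ratio was not tested.

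Neither Cyp3a member passed the test between WT and CAR-KO liver after DEN and PB. Cyp3a11 read 4929 (WT, Cy3) and 5832 (CAR-KO, Cy5) on array 1, and 8151 (WT, Cy5) and 4023 (CAR-KO, Cy3) on array 2. Its log2 ratios were 0.72 and 0.33, both positive, and the fit gave 0.53 ± 0.21 (95% interval 0.04 to 1.01, limma adjusted p = 1). Cyp3a13 read 246 and 249 on array 1, and 327 and 296 on array 2, in the order WT and CAR-KO. Its log2 ratios of 0.11 and 0.23 gave 0.17 ± 0.16 (limma adjusted p = 1). Cyp3a16 stood at 0.29 ± 0.16 and Cyp3a41a at 0.36 ± 0.18 (limma adjusted p = 1 for each), positive on both arrays.

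In WT tumour, Por was 3.73-fold higher than in CAR-KO liver given both agents, and the 2 Cyp3a members were not called. Genotype and tissue state differ at once here and cannot be told apart. Por read 13176 (tumour, Cy5) and 1534 (CAR-KO liver, Cy3) on array 1, and 29405 (tumour, Cy3) and 5360 (CAR-KO liver, Cy5) on array 2. The log2 ratios were 1.96 and 1.84, and the fit gave 1.90 ± 0.17 (SE of the fit to all 6 arrays, limma adjusted p = 0.00205). Of all probes, 3.36% were called, 2.53% higher and 0.839% lower. That count of 698 probes was 4707 without tumour-pair array 2, the array from the other scanner, and 4133 with median centring; it was 418 without either WT-pair array and 285 without either PB-pair array. With median centring in place of loess the Por value was 2.58.
Cyp3a11 read 8540 and 3166 on array 1, and 28112 and 11431 on array 2, in the order tumour and CAR-KO liver. Its log2 ratios were 0.23 and 0.65, and the fit gave 0.44 ± 0.21 (limma adjusted p = 0.246). Median centring gave 1.12 and an adjusted p of 0.0205, against 0.0205 to 0.862 over its 20 alternatives.
Cyp3a13 read 378 and 242 on array 1, and 1114 and 723 on array 2, in the same order. Its log2 ratios were 0.80 and 0.30, and the fit gave 0.55 ± 0.16 (limma adjusted p = 0.113). Without array 2 of the tumour pair it stood at 0.68 and passed (adjusted p = 0.0454), and over 20 alternatives its adjusted p ran from 0.01 to 0.524. Cyp3a16 stood at 0.21 ± 0.16 (limma adjusted p = 0.458) and Cyp3a41a at 0.30 ± 0.18 (limma adjusted p = 0.349), the latter with a saturated tumour spot on array 2. Both passed with median centring, Cyp3a16 at 0.71 (adjusted p = 0.0235, against 0.0235 to 0.807 over 20 alternatives) and Cyp3a41a at 1.03 (adjusted p = 0.0106, against 0.0106 to 0.672).

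Zonation markers were also called in the tumour comparison. Of 7 pericentral hepatocyte markers, 5 were called higher in tumour than in CAR-KO liver (2.53% of all probes), with Glul at 3.20 ± 0.24 (limma adjusted p = 0.0011). Of 4 periportal markers, 3 were called lower (0.839% of all probes), with Arg1 at -1.63 ± 0.31 (limma adjusted p = 0.0374). The summed signal of the pericentral markers was 37327 to 43555 in tumour. Their part in the tumour ratios of the members was not tested either.

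The channel levels placed the 4 RNAs in an order that differed between the members. These are normalized log2 signals of single channels, which describe 1 probe at a time and carry no test. Por stood at 10.33 and 10.99 in CAR-KO liver given DEN alone, and at 11.08, 11.18 and 11.30 (lowest, median and highest of 6 channels) in CAR-KO liver given DEN and PB. It stood at 12.81 in both channels of WT liver and at 13.13 and 13.14 in tumour, so the 4 RNAs did not overlap.
Cyp3a11 stood at 10.56 and 11.56 in CAR-KO liver given DEN alone, below every other channel. With DEN and PB the CAR-KO channels ran from 12.25 to 12.67, with a median of 12.43. WT liver gave 12.88 and 13.13 and tumour 12.48 and 13.11, so tumour overlapped both and WT liver lay above CAR-KO liver.
Cyp3a13 stood at 8.05 and 8.11 with DEN alone, from 7.57 to 8.34 (median 7.87) with DEN and PB, at 7.97 and 8.11 in WT liver and at 8.37 and 8.64 in tumour. Only tumour lay outside the range of the CAR-KO channels.
Cyp3a16 stood at 8.73 and 8.75 with DEN alone, below its 8.997 to 10.53 (median 9.31) with DEN and PB. Cyp3a41a stood at 13.14 and 14.15 with DEN alone and from 13.95 to 14.40 with DEN and PB, which overlapped.

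**Figure D3:**
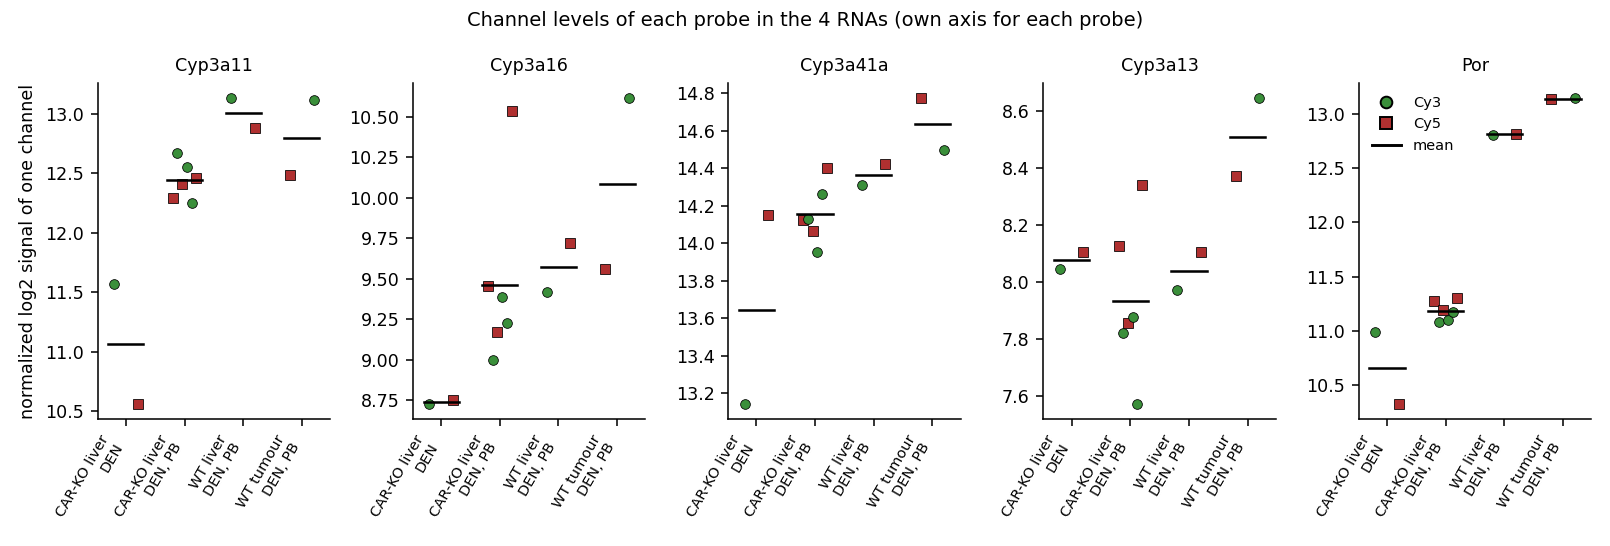
Normalized log2 signal of each probe (y axis, with its own range for each probe) in the channels of the 4 RNAs (x axis), with Cy3 as green circles, Cy5 as red squares and the mean as a bar. CAR-KO liver given DEN and PB has 6 channels and the other RNAs 2 each; Cyp3a11 is lowest in CAR-KO liver given DEN alone, at 10.56 and 11.56, and Por is highest in tumour, at 13.13 and 13.14.

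Sums and differences of the direct ratios compared the RNAs that did not share an array. They assume that the CAR-KO liver RNA given DEN and PB was the same in each pair, which the labels do not say, and they share its channels with the direct ratios. Against CAR-KO liver given DEN alone, WT liver given DEN and PB had a Por log2 ratio of 2.18 ± 0.24, or 4.53-fold (limma adjusted p = 0.0487), where 0.0627% of probes were called higher. Cyp3a11 stood at 1.95 ± 0.30, or 3.86-fold (limma adjusted p = 0.228), and Cyp3a13 at 0.07 ± 0.22 (limma adjusted p = 1). The Por call did not outlast small changes: with no filter on dim probes the adjusted p was 0.0515, and it ran from 4.22e-05 to 1 over 19 alternatives. The Cyp3a11 value passed without either tumour array (1.95, adjusted p = 0.00253) and in the separate-channel fit (1.94, adjusted p = 0.000975), and its adjusted p reached 1.
WT tumour over CAR-KO liver given DEN alone gave 2.42 ± 0.24 for Por (5.34-fold, limma adjusted p = 0.011) and 1.86 ± 0.30 for Cyp3a11 (3.64-fold, limma adjusted p = 0.0405), where 0.858% of probes were called and 0.723% called higher. Cyp3a13 stood at 0.45 ± 0.22 (limma adjusted p = 0.39). The Cyp3a11 call was lost without either WT-pair array (1.86, adjusted p = 0.0591) and without PB-pair array 1 (2.35, adjusted p = 0.0957) or array 2 (1.38, adjusted p = 0.509), within 0.000242 to 0.509 over 19 alternatives. The Por call was lost without PB-pair array 1 (2.71, adjusted p = 0.0806) or array 2 (2.13, adjusted p = 0.305), within 3.98e-06 to 0.421. With median centring both kept their calls at larger values, 3.34 for Por and 2.82 for Cyp3a11.
WT tumour over WT liver gave no call for any member, in a comparison where limma called 0 probes (0%), 1737 had an unadjusted p under 0.05, and the separate-channel fit called 355. Without tumour-pair array 2 limma called 2164 probes and without tumour-pair array 1 it called 194, and no member was among them. Por stood at 0.24 ± 0.24 (95% interval -0.33 to 0.81, limma adjusted p = 0.755), Cyp3a11 at -0.08 ± 0.30 (-0.77 to 0.61, adjusted p = 0.935) and Cyp3a13 at 0.38 ± 0.22 (-0.14 to 0.90, adjusted p = 0.625). With median centring Por stood at 1.05, outside that interval (adjusted p = 0.0972, against 0.0972 to 1 over 19 alternatives), and Cyp3a11 at 0.75 (adjusted p = 0.195, against 0.195 to 1).

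**Figure D4:**
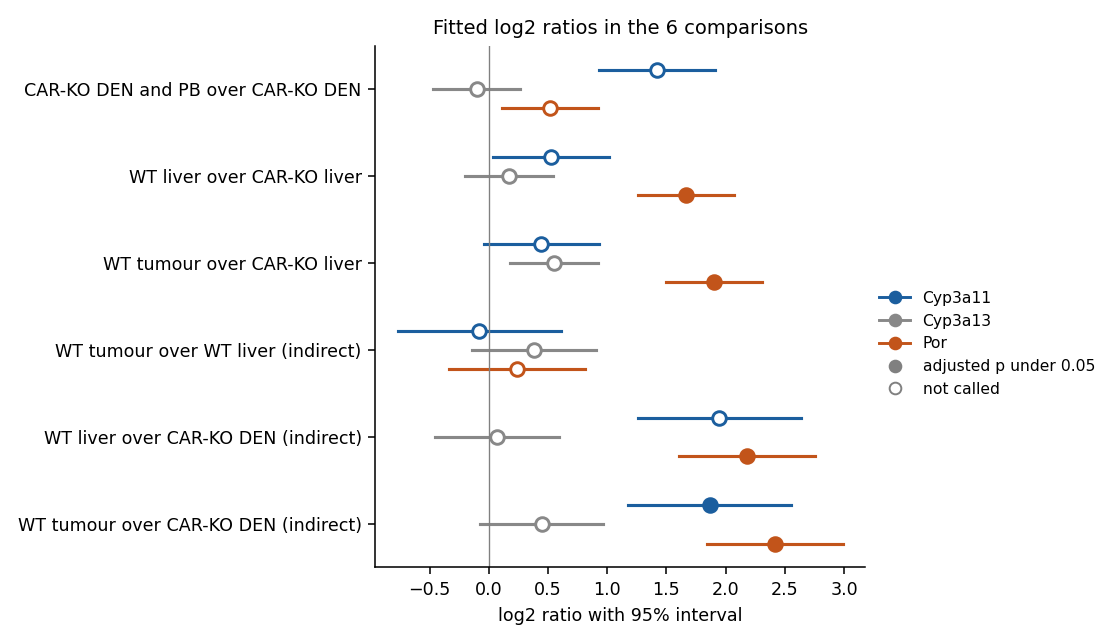
Fitted log2 ratio (x axis) of Cyp3a11, Cyp3a13 and Por in 3 direct and 3 indirect comparisons (y axis), with limma's 95% interval as a line; filled points passed an adjusted p of 0.05. Por is called in 4 of the comparisons and Cyp3a11 in 1, and the interval of Cyp3a11 with PB in CAR-KO liver, 0.93 to 1.91, excludes 0 without a call.

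The difference between the steps was set out as a contrast chosen after seeing the data: the step from CAR-KO to WT liver, both with PB, minus the step from DEN alone to DEN and PB within CAR-KO liver. For Por the step with the WT genotype was larger by 1.15 ± 0.24 on the log2 scale, and for Cyp3a11 the step with PB was larger, with a difference of -0.90 ± 0.30. Neither passed (limma adjusted p = 0.724 and 1), where 0.0386% of 20741 probes were called. For Cyp3a13 the difference was 0.27 ± 0.22 (limma adjusted p = 1).

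The other genes that PXR is known to switch on gave low values with PB in CAR-KO liver. Of 13 measured targets, 0 were called with PB by limma, as was no probe at all (0%), and 1 had an unadjusted p under 0.05, with a median log2 ratio of 0.07 against -0.01 for all probes; the separate-channel fit called 0. The largest ratios were those of Ces2a, a carboxylesterase, at 0.75 ± 0.20, and Thrsp, a lipogenic factor, at 0.60 ± 0.32 (limma adjusted p = 1 for each). Both followed array 2, at -0.14 and 1.65 for Ces2a and at -0.49 and 1.69 for Thrsp. Between WT and CAR-KO liver, where 0.0916% of all probes were called higher, 2 of the 13 were, Cyp2c55 at 2.67 ± 0.15 (limma adjusted p = 0.0011) and Cyp2b10 at 1.89 ± 0.16 (limma adjusted p = 0.00746), with a median of 0.64. Both are also on the list of CAR targets. In that comparison 12 of the 13 had positive fitted ratios and 8 had an unadjusted p under 0.05, as did 471 of 20743 probes. The separate-channel fit called 4 of the 13 there, against 103 of 20572 probes. In tumour, where 2.53% of all probes were called higher, 6 were, with a median of 0.96, among them Akr1b7, an aldo-keto reductase, at 2.22 ± 0.16 (limma adjusted p = 0.000953) and Abcc2, a canalicular export pump, at 1.51 ± 0.15 (limma adjusted p = 0.00286).

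Of 14 measured genes known to respond to CAR and PB, 8 were called higher in WT than in CAR-KO liver (0.0916% of all probes), with a median log2 ratio of 1.89 against -0.02 for all probes. Cyp2b9 stood at 4.76 ± 0.20 and Cyp2c37 at 3.18 ± 0.15 (limma adjusted p = 0.000382 for each). With PB in CAR-KO liver 0 were called by limma (0% of all probes), 3 had an unadjusted p under 0.05 and the separate-channel fit called 0, with a median of 0.13. The largest were Cyp1a2, at -0.31 and 2.09 on the arrays, and Ephx1, at -0.54 and 1.76. In tumour 13 of 14 were called higher (2.53% of all probes), with a median of 2.22.

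The list of other partners of P450 electron transfer gave 1 call in all, in tumour. The measured genes lacked Cyb5a and included Nos3, a nitric oxide synthase that is not itself such a partner. Of 6 measured, 0 were called by limma between WT and CAR-KO liver, 0 had an unadjusted p under 0.05 and the median was 0.17, with Cyb5r3, the cytochrome b5 reductase, at 0.37 ± 0.36 and Cyb5b, a cytochrome b5, at 0.35 ± 0.15 (limma adjusted p = 1 for each). In tumour, where 2.53% of all probes were called higher, only Cyb5b was called, at 0.997 ± 0.15 (limma adjusted p = 0.0162). With PB in CAR-KO liver 0 were called and 1 had an unadjusted p under 0.05, and Cyb5r3 stood at -0.22 on array 1 and 2.26 on array 2.
Of 6 genes that supply NADPH, the electron donor of POR, 2 were called higher in tumour (2.53% of all probes), with 0 to 3 called over 20 alternatives: the malic enzyme gene Me1 at 1.10 ± 0.23 (limma adjusted p = 0.0482) and the transketolase gene Tkt at 1.06 ± 0.17 (limma adjusted p = 0.0185). Between WT and CAR-KO liver 0 of the 6 were called by limma and 1 had an unadjusted p under 0.05 (Tkt, 0.54 ± 0.17).

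A list of enzymes outside drug metabolism that take electrons from POR had 12 measured genes. It included Fads2, a desaturase that takes its electrons from cytochrome b5. Of the 12, 2 were called in tumour, where 3.36% of all probes were. Sqle, the squalene epoxidase of cholesterol synthesis, was called higher at 1.07 ± 0.15 (limma adjusted p = 0.0117), and Cyp7b1, an oxysterol hydroxylase, was called lower at -1.60 ± 0.18 (limma adjusted p = 0.0049). Between WT and CAR-KO liver 0 were called by limma, with 1 higher and 2 lower at an unadjusted p under 0.05. The separate-channel fit called 3 of the 12 there, against 103 of 20572 probes. The largest values there were those of Cyp26a1, a retinoic acid hydroxylase, at 1.17 ± 0.17, and Cyp4a14, a fatty acid hydroxylase, at -1.16 ± 0.17 (limma adjusted p = 0.117 and 0.12).
With PB in CAR-KO liver Cyp4a14 had log2 ratios of 1.15 and 0.70, positive on both arrays as for Cyp3a11 (0.92 ± 0.17, limma adjusted p = 1), and Cyp7b1 had -0.71 and -0.66 (-0.69 ± 0.18, limma adjusted p = 1). In that comparison 0 of the 12 were called by limma, and 1 in each direction had an unadjusted p under 0.05.

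The genes of haem, which every P450 carries, gave no call by limma in the direct comparisons, and the receptors gave 2, both in tumour. Of 7 genes of haem synthesis and breakdown 0 were called in any direct comparison by limma. Between WT and CAR-KO liver, with PB in CAR-KO liver and in tumour, 0, 1 and 2 had an unadjusted p under 0.05. Among all probes, 471 of 20743, 565 of 20742 and 4858 of 20744 did in the same order. The separate-channel fit called 0, 0 and 2 of the 7, against 103, 12 and 2758 of 20572 probes. Alad, of the haem pathway, stood at -0.27 and 2.35 with PB in CAR-KO liver. In tumour the largest was Hmox1, the haem oxygenase, at 0.59 ± 0.16 (limma adjusted p = 0.0934).
Of 15 xenobiotic receptors and their partners, 2 were called higher in tumour, where 2.53% of all probes were. They were Ahr, the dioxin receptor, at 2.60 ± 0.16 (limma adjusted p = 0.000563) and Nr1i3 at 1.81 ± 0.16 (limma adjusted p = 0.00194). Nr1i3 encodes CAR, which is knocked out in the liver compared, so genotype and tissue state cannot be told apart in its ratio. Between WT and CAR-KO liver 0 of the 15 were called by limma, and the separate-channel fit called 2, against 103 of 20572 probes. There 2 had an unadjusted p under 0.05, Ahr at 0.97 ± 0.16 (limma adjusted p = 0.16) and Nr1i3 at 0.79 ± 0.16 (limma adjusted p = 0.412). With PB in CAR-KO liver 0 were called by limma, 1 in each direction had an unadjusted p under 0.05, and Ppara, the fatty acid receptor, stood at -0.02 and 1.75.

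Over the 6 turned log2 ratios, the genes nearest to each member in Euclidean distance were compared among 9211 genes. Nearest to Por were Sult1e1, the oestrogen sulphotransferase, at 1.02 and Cyp2c29, a P450, at 1.07, against a median distance of 3.68. These genes shared the WT and tumour values, with Sult1e1 at 1.77 ± 0.18 and 1.95 ± 0.18 and Cyp2c29 at 2.29 ± 0.16 and 2.14 ± 0.16.
Nearest to Cyp3a11 were Ctsz, a cathepsin, at 0.998, Cyb5r3 at 1.01 and Inmt, a methyltransferase, at 1.09, against a median of 2.55. These genes shared array 2 of the PB pair with Cyp3a11 and not array 1, where Ctsz stood at 0.15, Cyb5r3 at -0.22 and Inmt at -0.09. Nearest to Cyp3a13 were Birc2 at 0.146, Anxa3 at 0.192 and Cryzl1 at 0.194, against a median of 1.12, all with small ratios outside the tumour pair.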

How the data were processed

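Gene expression was measured on 6 arrays. Per the file headers, Agilent Feature Extraction 7.1.1 read 5 arrays and 7.5.1 read 1, while the submitters' processing notes name 7.5. The authors deposited mean and background intensity values of each spot without normalization, and processed intensity values after background subtraction and dye normalization. The log10 ratio of red over green that the authors deposited is the software's, and their value table equals it. Other deposited columns are flags.

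Mean signals were corrected with normexp (offset 50), normalized by loess within each array (control spots at weight 0, outlier spots missing), and averaged per probe. Log2 ratios, turned to a common direction by the labelled dyes, were fitted with limma 3.58.1 in R 4.3.3 (lmFit, eBayes) on 6 arrays, with 3 pair coefficients and a dye effect per probe (2 residual and 5.48 prior degrees of freedom). Probes with a channel well above background on at least 2 arrays were tested (20744), with 2-sided p-values adjusted by Benjamini-Hochberg over all of them and a threshold of 0.05. Errors are limma's SE, which draw on all 6 arrays and on the spread over all probes, and not on a pair alone. The number of arrays limits the precision. Channel levels used loess and Aquantile. RefSeq tables gave 9464 probes 1 symbol and left 11404 unnamed. The brightest probe stood for a gene.

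Named genes were the members, other Cyp3a genes, up to 4 called genes of each list per direct comparison by adjusted p (otherwise the 2 largest ratios), and the 3 genes nearest to each member (1 is not reported here); other genes are named as chosen after their values were seen or as markers. The members and lists were chosen with earlier results of these data known. The fit was tested on simulated data. Alternatives changed background correction, normalization, filter, outliers, dye effect, variance, weights, test and arrays. Promoter windows were read with Python 3.11.15; the AGGTCA search was added after the other motifs. No scanner term was fitted. Since 1 scanner read only 1 array, such a term would equal leaving out array 2 of the tumour pair, which is among the alternatives.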

Additional observations from a re-analysis of the deposited data

Results flagged for a closer look

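The highest of 6 channel levels of Cyp3a16 in CAR-KO liver given DEN and PB, 10.53, lay apart from the other 5, which ended at 9.45; it came from array 2 of the tumour pair, read on another scanner. Chance sets apart about 1 in 20 such groups. Without that array the mean level of Cyp3a16 in this RNA was 9.25 ± 0.18 (SD, n = 5 channels). Uros, a gene of haem synthesis, was negative on both arrays for WT over CAR-KO liver (-0.039) and positive on both for WT tumour over CAR-KO liver (0.59); the difference of these comparisons, which share an RNA, was 0.63 ± 0.22 (limma adjusted p = 0.583).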

How the results depend on the processing

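Of 351 values of the members under an alternative, 306 kept their direction and their side of the threshold, and the cause of the others was not tested. The 351 are not separate checks. Aquantile, the filters and the variance settings could not change a ratio, nor could leaving out an array of a pair outside the comparison. Leaving out either array of such a pair was the same fit counted again. Por in WT over CAR-KO liver lost its call with offset 16 (1.68), Agilent's processed signals (1.69) and median centring (1.53), and leaving out an array gave 1.53 to 1.80. Por in tumour over CAR-KO liver lost it with the processed signals (1.93). Por over CAR-KO liver given DEN alone lost it in WT liver with offset 16 (2.23), processed signals (2.23), median centring (2.29), no filter (2.18) and outliers kept (2.18), with 1.89 to 2.47 on leaving out an array, and in tumour with offset 16 (2.47) and processed signals (2.47), with 2.13 to 2.71. Cyp3a11 in tumour over CAR-KO liver given DEN alone lost it with offset 16 (1.95), processed signals (1.93), no dye effect (1.86) and array weights (1.86), with 1.38 to 2.35.

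Calls were gained for Cyp3a11 with PB in CAR-KO liver (separate-channel fit 1.41; 0.93 to 1.91 on leaving out an array), in WT liver over CAR-KO liver given DEN alone (array weights 1.95, separate-channel fit 1.94; 1.46 to 2.43) and in tumour over CAR-KO liver (median centring 1.12), and for Cyp3a13 in tumour over CAR-KO liver (median centring 0.71, separate-channel fit 0.56; 0.42 to 0.68). Median centring also gained calls for Cyp3a16 and Cyp3a41a in tumour over CAR-KO liver (0.71 and 1.03) and over CAR-KO liver given DEN alone (1.37 and 1.80), the last also in the separate-channel fit (0.85). Signs turned for Cyp3a13 with PB in CAR-KO liver (median centring 0.020), Cyp3a13 in WT liver over CAR-KO liver given DEN alone (-0.089 to 0.22 on leaving out an array) and, in tumour over WT liver, Cyp3a11 (median centring 0.75; -0.33 to 0.17), Cyp3a16 (median centring 0.49, separate-channel fit 0.12; -0.22 to 0.051) and Cyp3a41a (0.85, 0.057; -0.29 to 0.18), none of them called.

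With the sign of array 2 of the CAR-KO pair turned, an alternative chosen after seeing the data, the values with PB were -0.49 (Cyp3a11), 0.030 (Cyp3a13) and -0.29 (Por), Por lost its calls at 1.66 (WT over CAR-KO liver), 1.37 (WT over DEN alone) and 1.61 (tumour over DEN alone), and Cyp3a11 in tumour over DEN alone was -0.044. Probes called ran from 0 to 103 between WT and CAR-KO liver (21 as reported), 0 to 12 with PB (0), 0 to 4707 in tumour (698), and in the indirect comparisons 0 to 2164 (0), 0 to 69 (13) and 0 to 3730 (178); the highest of the tumour counts (4707, 2164 and 3730) came without tumour-pair array 2. Another probe of a member could not be tried, since each had 1. Each ratio already compares 2 RNAs on the same array. No further pairing, such as by animal, was possible because the labels give no replicate numbers beyond the dye-swapped arrays.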
